A study of Mus musculus with 3 samples.

Results

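The T and NK cell genes described here are 9 genes, *Cd3d*, *Cd3e*, *Cd3g*, *Lck*, *Zap70*, *Lat*, *Nkg7*, *Ccl5* and *Klrd1*, of the 36172 genes in the deposited table. They were taken by gene symbol, and all 9 were found. They were chosen by their normalized counts in these same libraries, in which earlier results had shown T and NK cell genes higher in ins2 than in WT, so their values are a description. The study asked how frameshift mutations of *Calr*, the calreticulin gene whose mutations drive myeloproliferative neoplasms, act in heterozygous knock-in mice. RNA was sequenced from LSK cells, the lineage-negative, Sca1-positive and c-Kit-positive cells of the bone marrow that hold hematopoietic stem cells and multipotent progenitors. There were 3 libraries, 1 per genotype: Calr del10/WT (del10), Calr ins2/WT (ins2) and Calr WT/WT littermates (WT), all on the C57BL/6 background. Both frameshifts lie in the last exon of *Calr* and were made with CRISPR-Cas9 in the germline, so every cell of a knock-in mouse carries 1 mutant allele. Cells of 4 males aged 3 months went into each library, which started from 5 ng of total RNA. Since mice were pooled and no genotype had a further library, the differences below could not be set against the spread between replicates, and none carries a p-value.

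T cells recognise antigen with a receptor whose signal passes through the CD3 chains, *Cd3d*, *Cd3e* and *Cd3g*. The kinase Lck phosphorylates these chains, the kinase Zap70 docks on them, and Zap70 in turn phosphorylates the adaptor Lat, on which the downstream signaling complex assembles. NK cells lack the T-cell receptor, although they also use Lck, Zap70 and Lat, and they share with cytotoxic T cells the granule protein Nkg7, the chemokine Ccl5 and the receptor subunit Klrd1 (CD94). Antibodies for lineage depletion of bone marrow usually include one to CD3. *Lat* is also known from mast cells, platelets and megakaryocytes, and *Ccl5* is made by other blood cells as well.

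*Cd3g* and *Cd3d* are neighbors on mouse chromosome 9 (mm10, coordinates of the deposited table). *Cd3g* lies on the minus strand at chr9:44969572-44980431 and *Cd3d* on the plus strand at chr9:44981786-44987052, and their start sites face away from each other over 1355 bases. *Cd3e* follows on the minus strand at chr9:44998743-45009590, with its 3′ end 11691 bases beyond the end of *Cd3d*. The other members are scattered: *Zap70* at chr1:36761861-36782816, *Lck* at chr4:129548344-129573641, *Klrd1* at chr6:129591811-129598775, *Nkg7* at chr7:43437138-43438246, *Lat* at chr7:126363828-126369534 and *Ccl5* at chr11:83525779-83530518. Of the 9, only *Zap70* overlapped another gene of the table, *Gm18828*, which was listed at 0 reads in all 3 libraries.

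Promoter sequences are shown because the 3 neighboring CD3 genes were each highest in ins2, and because *Nkg7* and *Lat* are a member lower in del10 than in ins2 and the member with close levels in both. Each runs 5′ to 3′ along the gene's own strand, from 250 bases before to 50 bases after the RefSeq start site (GRCm38.p6). They lie at chr9:44981536-44981835 on the plus strand for *Cd3d*, chr9:44980382-44980681 on the minus strand for *Cd3g*, chr9:45009562-45009861 on the minus strand for *Cd3e*, chr7:43436888-43437187 on the plus strand for *Nkg7* and chr7:126369519-126369818 on the minus strand for *Lat*. Capitals mark the core letters bound by ETS factors (GGAA, or TTCC on the other strand) and by RUNX factors (TGTGGT, or ACCACA on the other strand), and no printed match of one overlaps a match of the other.
Cd3d: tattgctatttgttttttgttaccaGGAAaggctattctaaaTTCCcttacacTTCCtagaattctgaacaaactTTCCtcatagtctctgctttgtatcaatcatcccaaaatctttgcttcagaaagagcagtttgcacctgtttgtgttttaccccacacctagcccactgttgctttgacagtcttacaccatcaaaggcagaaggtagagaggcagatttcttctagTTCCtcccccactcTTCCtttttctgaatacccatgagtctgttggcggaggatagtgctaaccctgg
Cd3g: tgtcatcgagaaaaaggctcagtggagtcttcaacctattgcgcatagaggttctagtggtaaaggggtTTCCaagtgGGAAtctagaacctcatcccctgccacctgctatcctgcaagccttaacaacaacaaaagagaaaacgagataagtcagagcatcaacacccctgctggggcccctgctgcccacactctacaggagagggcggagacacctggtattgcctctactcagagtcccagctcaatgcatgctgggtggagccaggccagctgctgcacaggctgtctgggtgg
Cd3e: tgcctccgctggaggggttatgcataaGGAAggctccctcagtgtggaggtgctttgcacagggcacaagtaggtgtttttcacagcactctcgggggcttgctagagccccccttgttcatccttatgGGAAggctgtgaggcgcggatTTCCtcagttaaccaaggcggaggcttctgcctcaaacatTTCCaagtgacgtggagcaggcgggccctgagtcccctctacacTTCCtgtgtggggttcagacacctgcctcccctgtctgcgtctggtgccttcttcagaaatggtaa
Nkg7: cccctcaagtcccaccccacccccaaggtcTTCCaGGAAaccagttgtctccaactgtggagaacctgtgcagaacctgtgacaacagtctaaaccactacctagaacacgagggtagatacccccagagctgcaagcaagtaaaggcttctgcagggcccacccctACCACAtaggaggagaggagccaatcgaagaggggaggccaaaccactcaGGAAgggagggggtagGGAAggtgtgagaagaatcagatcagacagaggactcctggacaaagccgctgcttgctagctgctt
Lat: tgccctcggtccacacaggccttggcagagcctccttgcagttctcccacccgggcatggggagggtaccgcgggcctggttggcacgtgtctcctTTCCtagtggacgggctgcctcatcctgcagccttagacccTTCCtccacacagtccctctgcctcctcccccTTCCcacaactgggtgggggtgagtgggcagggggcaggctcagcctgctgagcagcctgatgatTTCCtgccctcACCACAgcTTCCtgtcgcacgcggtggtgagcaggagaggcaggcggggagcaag

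RefSeq promoter windows were found for 7 of the 9 members, all but *Ccl5* and *Klrd1*, and gave 10 windows, with 3 for *Zap70* and 2 for *Lck*. The ETS core was in 9 of the 10 windows, with 6 matches in that of *Cd3d*, 5 in those of *Cd3e* and *Lat*, 4 in that of *Nkg7* and 2 in that of *Cd3g*. This core is in 96.0% of all 32851 windows of the same length. The RUNX core was in 4 of the 10 windows, once each in *Nkg7*, *Lat*, 1 window of *Lck* and 1 of *Zap70*, and it is in 16.8% of all windows. None of the 3 CD3 windows held it. GATA was in 5 of the 10 windows and in 57.9% of all, and the E-box CANNTG, which reads the same on both strands, was in 10 of the 10 and in 72.3% of all. A match of letters is a description of the window and not a bound site.

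The libraries differed in ways that bear on every value below. They held 11111698 reads in del10, 10967622 in ins2 and 9823095 in WT, but the commonest low read count per gene was 16 in del10, 21 in ins2 and 61 in WT. This count was taken as the number of reads that 1 starting fragment gave, and reads divided by it are called fragments here. *Kit*, which encodes the c-Kit receptor of the sort, had 4177 normalized counts in del10, 3082 in ins2 and 286.0 in WT, and *Cd34*, a progenitor marker, had 1664 and 727.2 in del10 and ins2 and was listed at 0 in WT. *Ly6a*, which encodes Sca-1, was low throughout, at 51.9, 120.1 and 145.1 in del10, ins2 and WT. The summed level of 18 B-lineage genes was 24246 in del10, 24842 in ins2 and 79612 in WT. The WT library thus stood apart from both knock-in libraries in *Kit*, *Cd34* and the B-lineage genes, though not in *Ly6a*. The part of this in the comparisons with WT was not tested. The comparison of del10 with ins2 does not use the WT library for its values.

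A normalized count is the estimated read count of a gene times 1 factor per library. The 9 genes summed to 4367.4 normalized counts in del10, 9060.3 in ins2 and 3709.3 in WT, which was 268.0, 438.4 and 55.3 fragments. The ins2 library was the highest. The sum in del10 was 1.18 times that in WT (95% exact binomial interval on fragments 0.879 to 1.60) and that in ins2 was 2.44 times that in WT (1.84 to 3.29). Against ins2, the sum in del10 was 0.482 times as large (0.413 to 0.562). All intervals cover counting error only and not the difference between mice or preparations. In a bulk library fewer cells of a type and less RNA per cell cannot be told apart.

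**Figure D1:**
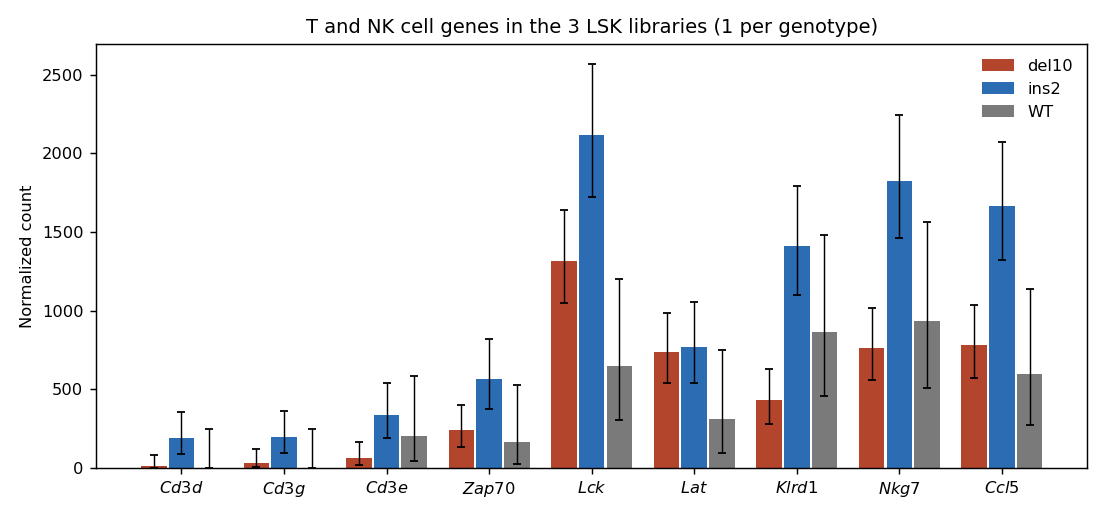
Normalized counts of the 9 genes (vertical axis) in del10, ins2 and WT, 1 library each. Bars are the values and error bars are 95% exact Poisson intervals on fragments, which cover counting error only; ins2 has the highest bar for each of the 9 genes, and the WT error bars are wide because that library held few fragments.

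Among the CD3 chains, *Cd3e* had 61.1 normalized counts in del10, 333.6 in ins2 and 199.0 in WT, or 3.75, 16.1 and 2.97 fragments. *Cd3d* had 11.8 in del10, 187.3 in ins2 and 0.385 in WT, the last being a share of 1 read and under the floor of 3 reads. *Cd3g* had 32.6 in del10 and 194.3 in ins2 and was listed at 0 in WT. All 3 chains were thus highest in ins2, where they rested on 9.07 to 16.1 fragments, and in del10 and WT none rested on more than 3.75. A WT level of 0 reads does not show absence, since the upper limit of the *Cd3g* interval in WT was 247.4 normalized counts, above the value in ins2.

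Del10 held 0.063 times as much *Cd3d* as ins2 (interval on fragments 0.000432 to 0.566), 0.168 times as much *Cd3g* (0.0177 to 0.80) and 0.183 times as much *Cd3e* (0.0423 to 0.582). For the 3 chains summed, the level was 105.5 in del10 and 715.2 in ins2, a ratio of 0.148 (0.053 to 0.346). Against WT, with 199.4 summed, the ratio was 0.529 for del10 (0.117 to 3.25) and 3.59 for ins2 (1.13 to 18.4). These genes were chosen for being high in ins2, so the intervals describe the counting error of the ratios and support nothing. For *Cd3d* and *Cd3g* no fold against WT is given, and on fragments the interval of each of these 4 ratios included 1. *Cd3e* was 0.307 times as high in del10 as in WT (0.0494 to 2.16) and 1.68 times as high in ins2 as in WT (0.478 to 9.07).

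*Lck*, the Src-family kinase that starts T-cell receptor signaling, had 1318 normalized counts in del10, 2115 in ins2 and 647.6 in WT, or 80.9, 102.3 and 9.66 fragments. The level was 2.04 times as high in del10 as in WT (1.04 to 4.47), 3.27 times as high in ins2 as in WT (1.69 to 7.12) and 0.623 times as high in del10 as in ins2 (0.46 to 0.842). The interval left out 1 in all 3 comparisons, but with fragments 2 times larger that for del10 against WT included 1. *Zap70*, the kinase that docks on phosphorylated CD3 chains, had 238.9 in del10, 566.0 in ins2 and 161.6 in WT. Its ratio was 1.48 for del10 against WT (0.376 to 10.3), 3.50 for ins2 against WT (0.971 to 23.3) and 0.422 for del10 against ins2 (0.208 to 0.824).

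The adaptor *Lat* had 737.4 normalized counts in del10, 765.4 in ins2 and 310.1 in WT, so that the knock-in libraries lay side by side above WT. The ratio of del10 to ins2 was 0.963, and its interval of 0.61 to 1.53 was the 1 interval of the 9 in that comparison to include 1, although it overlapped those of *Lck*, *Zap70*, *Cd3g* and *Ccl5*. Against WT, *Lat* was 2.38 times as high in del10 (0.92 to 8.12) and 2.47 times as high in ins2 (0.94 to 8.51). The summed level of mast cell and basophil markers was also lowest in WT, but higher in del10 than in ins2. It was 35316 in del10, 24554 in ins2 and 2662.4 in WT over 14 genes, of which 4, 3 and 6 were at 0. Its largest part was *Prss34*, with 15962, 11103 and 785.0. Of the 9 main set genes, 0 passed 2-fold either way between del10 and ins2, beside 3.59% upward and 4.03% downward of the main set. *Gzmb*, *Il4* and *Cma1* were higher in ins2 than in del10. For 12 megakaryocyte genes the summed level was 6007.2, 4744.2 and 2967.9, and 2, 4 and 5 were at 0. Most of that sum in del10 and ins2 was *Itga2b*, with 4286, 2775 and 987.4, which is in both lists. *Cpa3*, a mast cell and basophil carboxypeptidase, had 2045, 1515 and 131.9, and *Fcer1a*, the IgE receptor alpha chain, had 962.6, 862.4 and 72.6. The basophil and mast cell marker *Ms4a2* was listed at 0 in all 3 libraries. *Tpsb2* and *Mcpt4*, proteases of mature mast cells, were also at 0 in all 3. *Cma1*, another of these proteases, had 55.1 in ins2 and was at 0 in del10 and WT. The part of these cells in the *Lat* level was not tested.

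*Nkg7*, a protein of cytotoxic granules, had 760.7 normalized counts in del10, 1821 in ins2 and 931.3 in WT, or 46.7, 88.1 and 13.9 fragments. *Klrd1*, the CD94 subunit that pairs with NKG2 receptors, had 428.8 in del10, 1413 in ins2 and 862.2 in WT. *Ccl5*, a chemokine of activated and memory T cells and NK cells, had 778.1 in del10, 1665 in ins2 and 597.1 in WT. The 3 genes were highest in ins2, while WT lay above del10 for *Nkg7* and *Klrd1* and below it for *Ccl5*. Del10 held 0.418 times as much *Nkg7* as ins2 (0.286 to 0.602), 0.303 times as much *Klrd1* (0.186 to 0.482) and 0.467 times as much *Ccl5* (0.32 to 0.677).

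Against WT, the ratio of ins2 was 1.96 for *Nkg7* (1.10 to 3.73), 1.64 for *Klrd1* (0.895 to 3.25) and 2.79 for *Ccl5* (1.39 to 6.35). The ratio of del10 to WT was 0.817 for *Nkg7* (0.441 to 1.61), 0.497 for *Klrd1* (0.246 to 1.06) and 1.30 for *Ccl5* (0.63 to 3.04). Each of the 3 intervals for del10 included 1. Summed, the 3 genes had 1967.5 in del10, 4898.6 in ins2 and 2390.6 in WT, with a ratio of 0.823 for del10 against WT (0.562 to 1.23), 2.05 for ins2 against WT (1.44 to 3.0) and 0.402 for del10 against ins2 (0.32 to 0.502).

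The make-up of the 9 genes also varied. *Lck*, *Zap70* and *Lat* together made up 52.5% of the summed level in del10, 38.0% in ins2 and 30.2% in WT, and *Nkg7*, *Ccl5* and *Klrd1* made up 45.1%, 54.1% and 64.4%. The CD3 chains made up 2.42% in del10, 7.89% in ins2 and 5.38% in WT. Per kilobase of transcript, *Ccl5* was the most abundant member in each library, with 1463 normalized counts per kilobase in del10, 3129 in ins2 and 1122 in WT, and *Nkg7* followed with 863.4, 2067 and 1057. In ins2 the order then ran *Klrd1* (1579 per kilobase), *Lck* (967.9), *Lat* (619.8), *Zap70* (252.1), *Cd3e* (228.2), *Cd3g* (189.9) and *Cd3d* (115.9). Intervals on fragments overlapped for 6 of the 8 neighboring pairs in that order, and the pairs that stood apart were *Klrd1* over *Lck* and *Lat* over *Zap70*. In del10 they overlapped for 7 of 8, with *Klrd1* (479.1 per kilobase) standing apart from *Zap70* (106.4), and in WT for 8 of 8. *Nkg7*, *Ccl5* and *Klrd1* were thus well above the CD3 chains per kilobase in all 3 libraries. This does not hold for every cytotoxic gene, since *Prf1* (perforin) had 104.0 per kilobase in WT and *Cd3e* 136.1.

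**Figure D2:**
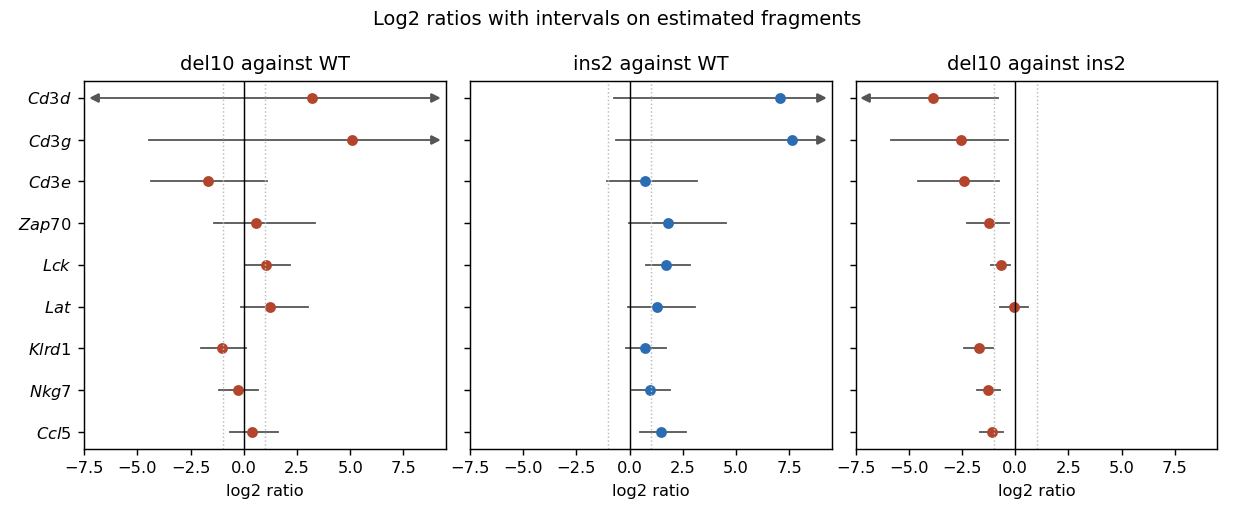
Log2 ratios of normalized counts (horizontal axis, pseudocount 1) of the 9 genes for del10 against WT, ins2 against WT and del10 against ins2. Points are the ratios, lines their 95% exact binomial intervals on fragments (arrows run off the axis) and dotted lines mark 2-fold; in del10 against ins2, 8 of the 9 lines lie wholly below 0 and that of *Lat* crosses it.

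Counting over the 9 genes, on log2 ratios with a pseudocount of 1, 4 were over 2-fold higher in del10 than in WT (*Cd3d*, *Cd3g*, *Lck* and *Lat*), 2 were over 2-fold lower (*Cd3e* and *Klrd1*) and 3 were within 2-fold. *Lck* fell short of 2-fold under each of the 3 other scalings tried, which left 3 higher. The background was the main set, 7073 genes whose normalized counts averaged 215.3 or more, of which 15.3% passed 2-fold upward and 10.2% downward in del10. Of the 6 members in the main set, 2 were higher and 1 lower. The interval on fragments lay above 1 for 1 member (*Lck*), against 10.9% of the main set, and below 1 for none, against 10.1%. The median log2 ratio over the 9 was 0.56, with a range of -1.69 to 5.07, and over the main set it was 0.04. The count of members in del10 against WT thus pointed both ways.

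In ins2 against WT, 6 members were over 2-fold higher (*Cd3d*, *Cd3g*, *Lck*, *Zap70*, *Lat* and *Ccl5*), none was over 2-fold lower and 3 were within 2-fold. Of the main set, 15.7% passed 2-fold upward and 10.7% downward, and of its 6 members 4 were higher and 0 lower. The interval lay above 1 for 3 members (*Lck*, *Nkg7* and *Ccl5*), against 10.5% of the main set, and below 1 for none, against 10.3%. The ratio was above 0 on the log2 scale for 9 of 9, with a median of 1.48 and a range of 0.71 to 7.61, and the main set had a median of 0.04. The members were chosen for being high in this comparison, and nothing is read from these counts. Both comparisons use the same WT library.

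In del10 against ins2, 7 members were over 2-fold lower (all but *Lck* and *Lat*), none was higher and 2 were within 2-fold. Of the main set, 4.03% passed 2-fold downward and 3.59% upward, and of its 6 members 4 were lower and 0 higher. The interval lay below 1 for 8 of the 9, against 7.76% of the main set, and above 1 for none, against 8.5%. The median over the 9 was -1.26, with a range of -3.88 to -0.05, against 0.01 over the main set. The ins2 library chose the members here too. Of the 9, 6 were in the main set (*Lck*, *Zap70*, *Lat*, *Nkg7*, *Ccl5* and *Klrd1*), and the 3 CD3 genes had too low a mean.

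Other genes of the same pathways were taken from lists by function. Of 53 genes of T-cell receptor signaling beside the 9, the main set held 45. Relative to WT, del10 had 8 of them over 2-fold higher and 4 lower (median log2 ratio -0.02), and ins2 had 13 higher and 2 lower (median 0.63). Relative to ins2, del10 had 0 higher and 11 lower (median -0.40). As shares, 17.8% higher and 8.89% lower in del10 against WT lay near the 15.3% and 10.2% of the main set. In ins2 against WT, 28.9% higher and 4.44% lower stood beside 15.7% and 10.7%. The 24.4% lower in del10 than in ins2 stood beside 4.03%. In every list, a gene low in WT could enter the main set through the knock-in libraries, which favors a call of higher against WT. Likewise, a gene low in del10 could enter through ins2, which favors a call of lower in del10 than in ins2. The lists were also chosen with earlier results of these data known, so their shares are a description. Some signaling genes that many blood cells use, such as *Vav1* and *Csk*, were close in all 3 libraries. *Vav1*, a guanine nucleotide exchange factor, had 2539 in del10, 2386 in ins2 and 2749 in WT, and *Csk*, the kinase that restrains Lck, had 2828, 2890 and 3358.

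The 4 main set genes of this list furthest apart in del10 and ins2 were *Icos*, *Cd4*, *Cd8a* and *Rasgrp1*, the first 3 of them surface proteins of T cells. *Cd8a*, a coreceptor chain, had 235.7 normalized counts in del10, 854.0 in ins2 and 70.4 in WT, with a ratio of del10 to ins2 of -1.85 on the log2 scale. *Cd4*, the other coreceptor, had 95.7, 538.2 and 127.5 (del10 against ins2 -2.48), and *Icos*, a costimulatory receptor, had 33.6, 373.9 and 240.8 (-3.44). All 3 were highest in ins2. *Rasgrp1*, which links the receptor to Ras, had 509.3 in del10, 1508 in ins2 and 1165 in WT. *Cd247*, the zeta chain that completes the receptor and also serves NK cell receptors, had 265.8, 726.9 and 49.5.

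Further genes of the list were lowest in WT. *Thy1*, a surface protein of T cells and of some progenitors, had 486.9 in del10, 629.8 in ins2 and 29.7 in WT. *Themis*, which acts in T-cell selection, had 311.6 in del10 and 789.2 in ins2 and was listed at 0 in WT, and *Cd7*, an early T and NK cell marker, had 363.6, 884.7 and 64.9. *Btla*, an inhibitory receptor also of B cells, was highest in WT, with 142.9 in del10, 285.4 in ins2 and 800.4 in WT. Of the other defining T-cell markers, *Cd2* had 706.5 in del10, 588.5 in ins2 and 849.6 in WT, and *Cd5*, on at most 3.19 fragments, had 51.9 and 53.1 in del10 and ins2 and was listed at 0 in WT. *Cd2* was thus lowest in ins2.

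**Figure D3:**
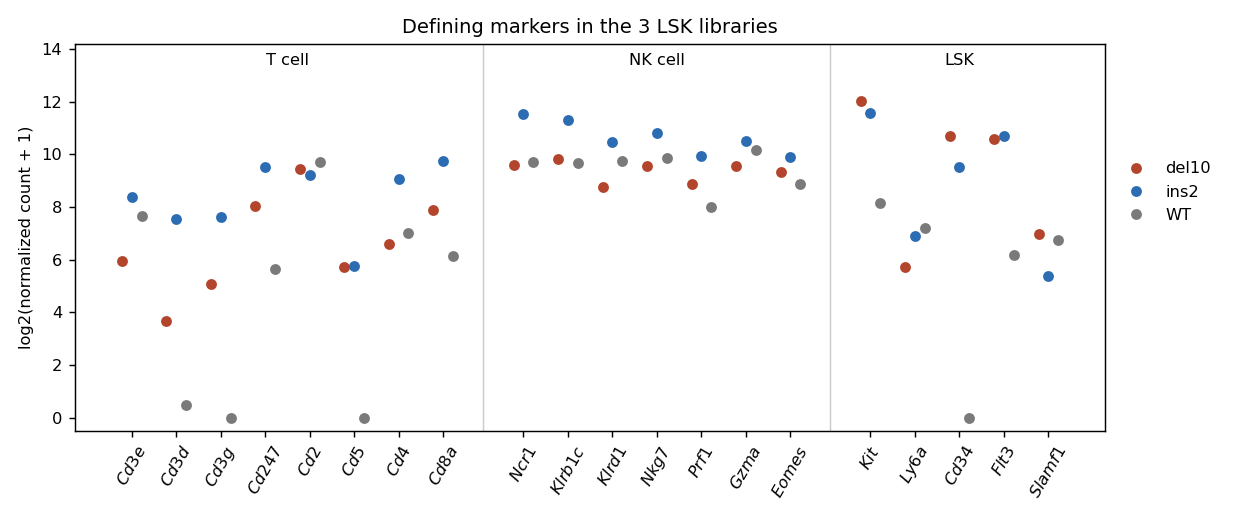
Level as log2(normalized count + 1) (vertical axis) of the defining markers of T cells, NK cells and LSK cells in del10, ins2 and WT, 1 point per library. Ins2 is the highest for each of the 7 NK cell markers, of which *Nkg7* and *Klrd1* were chosen for being high in ins2. Of the LSK markers, *Kit*, *Cd34* and *Flt3* are lowest in WT, *Ly6a* is highest in WT and *Slamf1* is lowest in ins2.

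The cytotoxic and NK cell list had the lowest median for del10 against ins2 of the 5 lists around the members. It held 48 genes, with 36 of them in the main set. Del10 had 18 of the 36 over 2-fold lower than ins2 and 0 higher (median log2 ratio -0.98). Relative to WT, ins2 had 30 higher and 1 lower (median 1.65), and del10 had 17 higher and 2 lower (median 0.91). As shares, 47.2% were higher in del10 and 83.3% in ins2, beside 15.3% and 15.7% of the main set. The 5.56% and 2.78% lower stood beside 10.2% and 10.7%. Relative to ins2, the 50% lower in del10 stood beside 4.03%. The summed level over the 48 was 33388 in del10, 53992 in ins2 and 21026 in WT.

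Receptors of NK cells led the difference between del10 and ins2. *Ncr1*, which encodes the activating receptor NKp46, had 770.1 in del10, 3001 in ins2 and 829.5 in WT, with a log2 ratio of -1.96 for del10 against ins2. *Klra8*, which encodes the receptor Ly49H, had 462.5, 1743 and 711.7 (-1.91), and *Klrb1f*, another lectin-like receptor of the NK gene complex, had 166.0, 553.6 and 192.4 (-1.73). *Klrb1c*, which encodes NK1.1, had 905.0 in del10, 2511 in ins2 and 812.5 in WT. In each of these 4 genes ins2 was the highest, and del10 and WT were within 2-fold of each other. *Klra7*, a further Ly49 gene, had 258.8 in del10 and 783.2 in ins2 and was under the floor of 3 reads in WT. Genes within the Klra family resemble one another in sequence, as do those within the Klrc family. How the counting split reads between such genes was not given in the sources used.

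A further set of this list was low in WT and alike in del10 and ins2. *Fcer1g*, a signaling chain of Fc and NK cell receptors, had 627.8 normalized counts in del10, 670.8 in ins2 and 28.6 in WT. *Fcgr3*, an Fc receptor, had 752.0, 498.4 and 70.4, and *Cst7*, an inhibitor of granule proteases, had 362.6 and 311.0 in del10 and ins2 and was listed at 0 in WT. These 3 genes are also used by mast cells, basophils or other myeloid cells, whose markers were low in WT as given above, and their part was not tested. *Klre1*, a lectin-like receptor, had 328.9, 886.7 and 34.1. Of the granule effectors, *Prf1* (perforin) had 464.1 in del10, 974.2 in ins2 and 257.3 in WT, and *Gzma* (granzyme A) had 756.3, 1458 and 1165. *Gzmk* was listed at 0 in all 3 libraries. *Slamf7* went the other way, with 844.2 in del10, 737.9 in ins2 and 2951 in WT, and this receptor is also found on B-lineage cells.

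**Figure D4:**
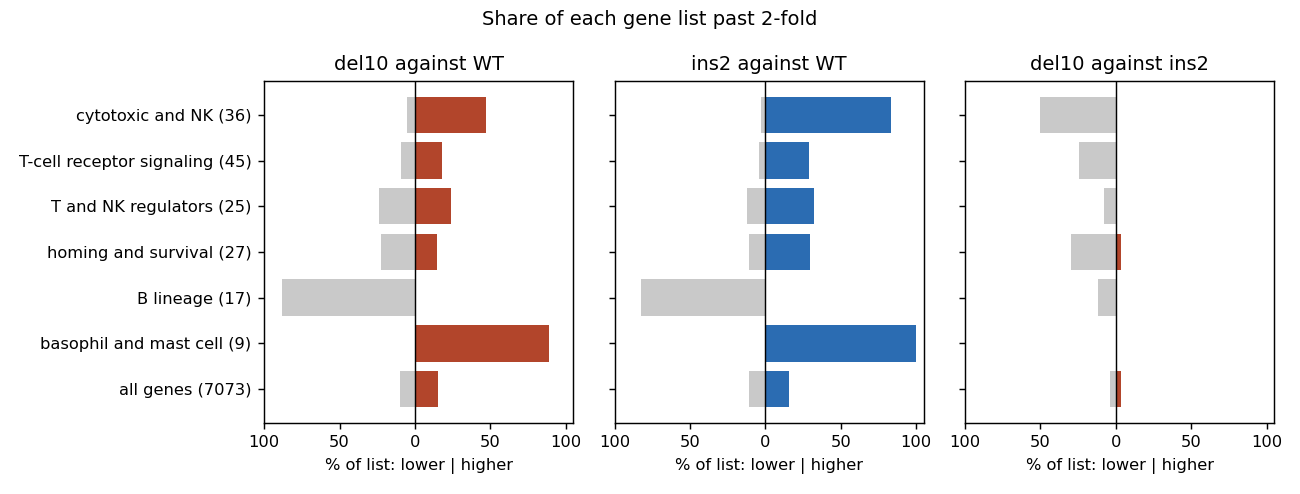
Share of the main set genes of each list (percent, horizontal axis, number of genes in brackets) that were over 2-fold lower (grey, left) or over 2-fold higher (colored, right) in del10 against WT, ins2 against WT and del10 against ins2, with all genes at the bottom. Of 36 cytotoxic and NK cell genes 18 are over 2-fold lower in del10 than in ins2, against 4.03% of all genes.

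Transcription factors of T and NK cells formed a further list. Of 30 regulators the main set held 25, and relative to ins2, del10 had 0 of them over 2-fold higher and 2 lower (median -0.16). As shares, 0% and 8% stood beside 3.59% and 4.03% of the main set. The 2 lower genes were *Gata3*, with 238.3 in del10, 509.7 in ins2 and 951.1 in WT, and *Tcf7*, with 882.0, 1854 and 495.7. Against WT, del10 had 6 higher and 6 lower (median 0.23) and ins2 8 higher and 3 lower (median 0.45). In del10 these were 24.0% and 24.0%, beside 15.3% and 10.2% of the main set. In ins2, 32.0% higher stood beside 15.7%, and the 12% lower lay near the 10.7% of the main set. *Satb1*, a chromatin organiser of thymocytes, had 2651 in del10, 4919 in ins2 and 1187 in WT, and *Zbtb16*, the factor PLZF of innate-like lymphocytes, had 482.2, 279.3 and 74.1. *Eomes*, a factor of NK and memory T cells, had 637.0, 949.8 and 467.0, and *Foxp3*, the factor of regulatory T cells, was listed at 0 in all 3 libraries. *Ikzf3*, which is also a B-cell factor, was highest in WT, with 1237, 2004 and 4583.

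The main set held 27 of 31 genes of lymphocyte homing and survival, and relative to ins2, del10 had 1 of them over 2-fold higher and 8 lower (median -0.72). The 1 higher gene was *Klf2*, a factor that keeps lymphocytes quiescent, with 8119 in del10, 3148 in ins2 and 5907 in WT. *Gimap1*, a GTPase needed for lymphocyte survival, had 203.7, 726.2 and 610.0, and *Il12rb2*, an interleukin 12 receptor chain of NK and T cells, had 298.4, 738.2 and 52.6. Against WT, del10 had 4 higher and 6 lower (median -0.10) and ins2 8 higher and 3 lower (median 0.36). The 14.8% higher in del10 lay near the 15.3% of the main set, as did the 3 of 27 lower in ins2 near its 10.7%. The 22.2% lower in del10 and the 29.6% higher in ins2 stood beside 10.2% and 15.7% of the main set. Relative to ins2, the 29.6% lower in del10 stood beside 4.03%, and the 1 of 27 higher stood beside 3.59%. *Ccr7*, a homing receptor of naive lymphocytes, was highest in WT, with 210.8 in del10, 110.2 in ins2 and 634.8 in WT.

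Chemokines and receptors around *Ccl5* were read as well. Of 17 genes listed 15 were matched and 6 were in the main set. Of these 6, 5 were over 2-fold higher than WT in del10 (median 3.31) and 5 in ins2 (median 3.14), and the median for del10 against ins2 was -0.18. Each share higher than WT was 83.3%, beside 15.3% and 15.7% of the main set. *Ccr1* and *Ccl6* entered the main set through the knock-in libraries, and over all list genes with reads the medians were 3.19, 2.82 and 0.25. *Ccr1*, a receptor for Ccl5, had 545.9 in del10 and 457.5 in ins2 and was listed at 0 in WT. *Ccl3*, a chemokine of myeloid and NK cells, had 2744, 2213 and 270.5, and *Ccl9*, a myeloid chemokine, had 2413, 3171 and 237.6. *Ccl3* and *Ccl4*, both over 2-fold higher than WT in del10 and ins2, are counted in the cytotoxic and NK cell list as well. For del10 against ins2 the log2 ratio of *Ccl5* itself was -1.10, against 0.31 for *Ccl3*.

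Markers of other cells that share these genes were read beside them. The main set held 6 of 14 genes of group 2 innate lymphoid cells, with 5 over 2-fold lower in del10 than in WT and 2 in ins2 than in WT. As shares, these were 83.3% and 33.3%, beside 10.2% and 10.7% of the main set. The summed level of the 14 was 3704.4 in del10, 4764.6 in ins2 and 9595.2 in WT. Its largest part was *Il7r*, with 1538, 1950 and 3679, which is also in the list of homing and survival. Not all listed genes were highest in WT, since *Icos*, *Klrg1* and *Il13* were highest in ins2 and *Rora* in del10. At 0 were 2, 3 and 4 of the 14, *Il5* and *Calca* in all 3 libraries. For 12 genes of plasmacytoid dendritic cells the summed level was 12918, 17094 and 16568, with 1 of 9 main set genes over 2-fold lower in del10 than in ins2. B-lineage genes, at 24246 in del10 and 24842 in ins2, had 2 of 17 over 2-fold lower in del10. The summed levels of both B-lineage and group 2 innate lymphoid cell genes were thus highest in WT, while that of the members was highest in ins2.

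The genes whose levels over the 3 libraries most resembled the sum of the 9 were sought among 2321 main set genes averaging at least 1000 normalized counts. Likeness was the Euclidean distance between log2 levels, each centred on its mean over the 3 libraries, and 9 genes lay within 0.25. The nearest was *Il2rb*, the beta chain of the interleukin 2 and 15 receptors, at 0.051, with 2777 in del10, 5884 in ins2 and 2291 in WT. *Dhx36*, a helicase, followed at 0.158 with 861.4, 1551 and 718.5, and *Klrk1*, which encodes the activating receptor NKG2D, at 0.170 with 1598, 2925 and 1401. *Arhgef3*, a guanine nucleotide exchange factor, lay at 0.171 and *Shisa5* at 0.172. With 3 libraries, a small distance is a description and gives no sign of shared control.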

How the data were processed

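The 3 libraries of LSK cells, 1 per genotype, each an aliquot from 4 male mice, were read as 75-bp single-end reads after depletion of ribosomal RNA. The authors trimmed (Trimmomatic 0.32), aligned (TopHat2 2.1.1 with Bowtie2 2.2.3, mm10) and counted the reads in StrandNGS 3.2 per RefSeq gene, after bcl2fastq 2.20, as named in the submitters' processing notes and methods. Use of strand in counting and removal of duplicates are not given in the sources used here. The deposited estimated counts were whole to within 0.001 for 35.3% (del10), 38.5% (ins2) and 48.7% (WT) of the genes with reads. The authors also gave log2 values scaled with TMM (trimmed mean of M-values). Estimated counts times 1 factor per library (1.02 in del10, 0.984 in ins2 and 1.10 in WT) gave the deposited log2 values to within 1.4e-06.

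Log2 ratios used a pseudocount of 1 and ratios (folds) none. The main set held 7073 of 14145 detected genes, those averaging 215.3 normalized counts or more. The commonest low read count, searched between 5 and 150 reads in a histogram smoothed over 5 counts to either side, was taken as 1 fragment, and 12 of 12 widths tried gave a value within 25% in each library. Intervals were 95% Clopper-Pearson or exact Poisson on fragments. Levels per kilobase used the longest GENCODE vM21 transcript paired with a RefSeq mRNA. The 9 members and 14 further lists were chosen with earlier results of these data known, and 300 of 307 list entries matched a gene. Named genes were the members, the 4 main set genes of each list with the largest absolute log2 ratio per comparison, the defining markers and the 5 genes nearest in pattern. *Vav1*, *Csk*, *Tpsb2*, *Mcpt4*, *Cma1*, *Gzmk*, *Foxp3*, *Il4*, *Il5*, *Il13*, *Klrg1*, *Rora*, *Calca* and *Gm18828* are outside that rule, chosen once their values had been seen. Some genes that the rule names are not reported here. Proteins were not analysed here. With 1 library per genotype there was no replicate test. The steps were tested on simulated data. Alternatives were other pseudocounts, thresholds, filters and scalings and, added after the data were seen, larger fragments, reads as counts, and a main set from del10 and ins2. Software was SciPy 1.17.1, pandas 2.3.3, NumPy 2.4.6, matplotlib 3.10.9 and Python 3.11.15.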

Additional observations from a re-analysis of the deposited data

Results flagged for a closer look

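For 3 of the 9 genes the knock-in libraries lay on opposite sides of WT, and with 1 library per genotype this difference was not tested against replicates. The log2 ratio of *Cd3e* was -1.69 in del10 against WT and 0.74 in ins2 against WT. That of *Klrd1* was -1.01 in del10 and 0.71 in ins2, and that of *Nkg7* was -0.29 in del10 and 0.97 in ins2. All 3 genes were chosen for being high in ins2, so their lower level in del10 than in ins2 is a description.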

How the results depend on the processing

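No paired analysis was possible because each genotype had 1 library, and no replicate could be left out. The median log2 ratio over the 9 genes kept its sign under every pseudocount, scaling and summary tried, and other scalings moved the median of all genes by at most 0.07 on the log2 scale. A threshold of 3-fold left 2 members higher and 1 lower in del10 against WT and 4 lower in del10 against ins2. A pseudocount of 10 left 1 member lower in del10 against WT. When the whole interval on fragments had to pass 2-fold, 0 members were higher and 0 lower in del10 against WT, 0 were higher in ins2 against WT and 1 was lower in del10 against ins2; on reads, 1 was lower in del10 against WT. With fragments 2 times larger, 0 members had an interval above 1 in del10 against WT and 5 an interval below 1 in del10 against ins2. With each read as 1 count, 6 were above and 3 below 1 in del10 against WT and 9 above 1 in ins2 against WT.

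Without a filter, counts over all genes were 4269 higher and 2187 lower in del10 against WT, 4057 and 2221 in ins2 against WT, and 2179 and 1974 in del10 against ins2. A filter on WT alone left 488 higher in del10 and 496 higher in ins2, and one on ins2 alone left 107 higher and 431 lower in del10, where fewer or other genes entered. Of 156 other values, 147 were labelled the same and 9 moved. Member ratios and sums were judged by their own interval on fragments, list counts by 1.5 times and list medians by the quartiles of the list. The intervals of *Cd3d* and *Cd3g* against WT have no upper limit, so this label says little there. With a pseudocount of 10, the *Cd3d* log2 ratio of del10 to WT fell from 3.21 to 1.07 and still counted as the same. The median log2 ratio over all list genes with reads changed sign for 2 lists, to 0.18 from -0.02 for T-cell receptor signaling in del10 against WT and to 0.25 from -0.18 for chemokines in del10 against ins2. The 3 other scalings left 3 members over 2-fold higher in del10 against WT, without *Lck*. The causes were not tested. Depth limits the CD3 genes, which rested on at most 3.75 fragments in del10 and WT, and *Zap70* in WT (2.41 fragments).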
